A study of Homo sapiens with 14 samples.

Results

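The genes described here are the 44 genes of the integrated stress response and the unfolded protein response, chosen by symbol from the deposited gene tables, out of 57820 annotated genes. They were grouped by role into 5 stress sensors and eIF2 kinases, 7 transcription factors, 8 feedback regulators and stress effectors, 6 genes of amino acid synthesis and transport, 11 ER chaperones and cochaperones, 3 protein disulfide isomerases and 4 genes of ER-associated degradation. All were measured in HEK293T, an immortalized human embryonic kidney cell line, by AMUC-seq. In that method cells take up 4-thiouridine (s4U), a uridine analog that enters new RNA, and acrylonitrile then modifies the s4U in isolated RNA so that it is read as a mismatch during sequencing. The first of the 2 experiments had untreated cells, cells given 50 µM s4U for 24 h, RNA of unlabeled cells treated with acrylonitrile, and RNA of cells labeled with s4U for 24 h and treated with acrylonitrile. That last group carries 500 µM s4U in its labels and 50 µM in the protocol, so its dose is uncertain. In the second experiment cells received 0, 4 or 8 µM PDP, a pyridostatin analog that binds G-quadruplexes (stacked structures of guanine-rich nucleic acid), for 20 min before 1 h with 500 µM s4U, and all RNA was treated with acrylonitrile. Each of the 7 groups had 2 libraries of poly(A) RNA. Neither experiment applied a stressor of the endoplasmic reticulum (ER), and the cells are a single transformed line. The paper states, however, that 24 h with 50 µM s4U inhibited cell growth in part, short of substantial cell death. The part of this in the s4U changes was not tested.

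The integrated stress response begins with kinases that phosphorylate the initiation factor eIF2, among them HRI (EIF2AK1), PERK (EIF2AK3) and GCN2 (EIF2AK4). Phosphorylated eIF2 lowers general translation while the ATF4 message is translated more, and the ATF4 protein then switches on genes of amino acid supply, redox balance and feedback. The unfolded protein response adds the ER sensors IRE1 (ERN1), which splices the XBP1 message, and ATF6, which is cleaved into a transcription factor, and together they raise ER chaperones and degradation factors. PERK belongs to both.

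The first experiment held 6074118 to 17228999 fragments a library and the second 9770956 to 22363992, and the share of them in genes moved with the groups. It was 85.8% to 90.6% without acrylonitrile and 68.4% to 70.9% with it in the first experiment, and in the second 82.6% and 83.0% at 0 µM and 86.5% to 89.7% with PDP. The deepest libraries were those with PDP, so the 0 µM libraries carry the larger counting error in every PDP comparison. The 2 untreated libraries and the 2 libraries at 0 µM PDP differed by little more than sampling noise (chi-square per degree of freedom 1.068 and 1.082), while the 2 libraries with s4U alone differed far more (58.237). Nothing in the labels says that the 2 libraries of a group came from separate cultures, so every p-value reflects only library-to-library spread, which may be technical. All 4 HEK293T markers (NEFL, NEFM, PAX2 and LIN28B) were detected in every library, but their summed level moved with the groups. It was 309 and 305 FPM (fragments per 1000000 of the library) in untreated cells, 146 and 162 with s4U, 271 and 262 with acrylonitrile, 116 and 106 with both, and 274 to 303 in the PDP experiment. The markers did not move together. With s4U PAX2 went from 26.6 and 28.1 FPM to 3.16 and 3.77, and NEFL and NEFM also fell. LIN28B rose with s4U, from 87.7 and 84.2 FPM to 102 and 112. With acrylonitrile alone LIN28B was at 28.2 and 22.2 FPM. The summed liver markers were 12.6 and 12 FPM in untreated cells, 8.31 and 5.57 with s4U, 41.6 and 105 with acrylonitrile, 14.3 and 26.0 with both, and at most 0.894 in the PDP experiment, with ALB the highest. The part of these shares and markers in any difference was not tested. In bulk RNA, fewer cells with a transcript and less of it per cell cannot be told apart. The libraries were directional and were mapped with a strand setting, but that of the counting was not stated. Of the members, 23 overlap a gene on the other strand, and SYVN1 shares its strand with the coding gene FAU, so reads of such genes may be mixed.

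Promoters of the members are shown first because they carry the letters by which the unfolded protein response is usually recognized. RefSeq promoters (GRCh38.p14, 250 bases before to 50 after the start) matched 40 of the 44 genes, of 27305 promoters in all. The ER stress response element, CCAAT and CCACG with 9 bases between, was searched on both strands and was present in 6 member promoters (15.0%), beside 0.0806% of all promoters. In the lines that follow, CCAAT and CCACG stand in capitals and each sequence is read 5′ to 3′ on the strand that holds the match.
CALR, chr19:12938384-12938402, minus strand: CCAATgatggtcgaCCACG
CANX, chr5:179698778-179698796, plus strand: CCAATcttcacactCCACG
CRELD2, chr22:49918554-49918572, minus strand: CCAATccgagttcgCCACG
HSP90B1, chr12:103930216-103930234, plus strand: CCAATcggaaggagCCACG
HSP90B1, chr12:103930321-103930339, minus strand: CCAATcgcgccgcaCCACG
HSPA5, chr9:125241391-125241409, minus strand: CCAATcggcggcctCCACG
XBP1, chr22:28800603-28800621, minus strand: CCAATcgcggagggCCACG

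A second form, ATTGG and CCACG with 1 base between, was present in 3 member promoters (7.5%; all promoters 0.0549%). HYOU1 held it at 2 positions. The match in HYOU1 at chr11:119057380-119057390 overlaps a TGACGTGG motif, which was found in that member promoter only (2.5%; all promoters 0.795%).
HYOU1, chr11:119057274-119057284 and chr11:119057380-119057390, plus strand: ATTGGaCCACG
SDF2L1, chr22:21642114-21642124, minus strand: ATTGGtCCACG
HERPUD1, chr16:56932025-56932035, plus strand: ATTGGgCCACG

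The 8 letters TTGCATCA, a form of the element bound by ATF4 with its C/EBP partners, were present in the promoters of HERPUD1, CHAC1 and PPP1R15B (7.5% of the matched members; all promoters 0.923%). A G-quadruplex motif, 4 runs of at least 3 G with loops of 1 to 7 bases, was present on either strand in 14 member promoters (35.0%), beside 24.1% of all promoters and 35.7% of the 9397 promoters whose genes were tested for labeled RNA. The share among the members was thus close to that of expressed genes. The motif of ATF4 is shown, with the G runs in capitals, because its fragments past the gene end are described later. All these matches are descriptions of sequence in these windows, not sites of binding.
ATF4, chr22:39520430-39520451, plus strand: GGGGcgtcaaaGGGaGGGaGGG

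At 0 µM PDP the members spanned a wide range of half-lives. The authors derived a half-life for each gene from the share of its fragments that carried the label after 60 min, assuming a constant RNA level, and 43 of the 44 members had one. The shortest were those of PPP1R15A (ENSG00000087074.7), the phosphatase subunit GADD34 that reverses eIF2 phosphorylation, at 31.2 ± 2.0 min (SD, n = 2 here and for all half-lives), the ER cochaperone DNAJB9 at 33.6 ± 3.7 min, the mTOR inhibitor DDIT4 at 34.6 ± 0.35 min and the transcription factor DDIT3 (CHOP) at 41.1 ± 3.4 min. The longest were those of EIF2AK1 at 561 ± 32 min, the cochaperone DNAJB11 at 533 ± 35 min, the lectin chaperone CALR at 513 ± 27 min and HYOU1, a large ER chaperone, at 489 ± 30 min. Between these ends stood CEBPB at 80.3 ± 0.89 min, XBP1 at 147 ± 0.054 min, ATF4 at 152 ± 0.46 min, ATF6 at 189 ± 38 min and the main ER chaperone HSPA5 (BiP) at 294 ± 19 min.

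By role the medians ranged widely, although single members crossed them, as with the chaperones DNAJB9 and DNAJC3 (93.3 min). Feedback regulators had a median of 90.1 min, transcription factors 128 min (6 members), ER-associated degradation 151 min, sensors 189 min, amino acid genes 236 min, chaperones 354 min and disulfide isomerases 426 min. Over all 43 members the median was 188 min, beside 178 min over 14709 genes, and 21 members lay below that gene median, so the list as a whole stood close to the transcriptome. Long half-lives rest on a labeled share near the unlabeled background: 8.08% (95% Wilson interval 7.40% to 8.81%) and 7.53% of CALR fragments were labeled, while 6.74% were marked in acrylonitrile libraries without s4U. For HSP90B1, another chaperone, the labeled shares were 9.40% and 8.53% and the unlabeled background 9.43%. After subtraction of that background the member median was 296 min (42 members) and the gene median 289 min. The long values moved most and their order changed: CALR became 4182 ± 1542 min, PDIA3 3833 ± 2934, EIF2AK1 3482 ± 1094, HYOU1 2017 ± 472 and DNAJB11 1457 ± 247, and HSP90B1 had none. The shortest became 42.3 min for DDIT4, 45.1 for PPP1R15A, 48.3 for CHAC1 (SD 12.3) and 48.5 for DDIT3.

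**Figure D1:**
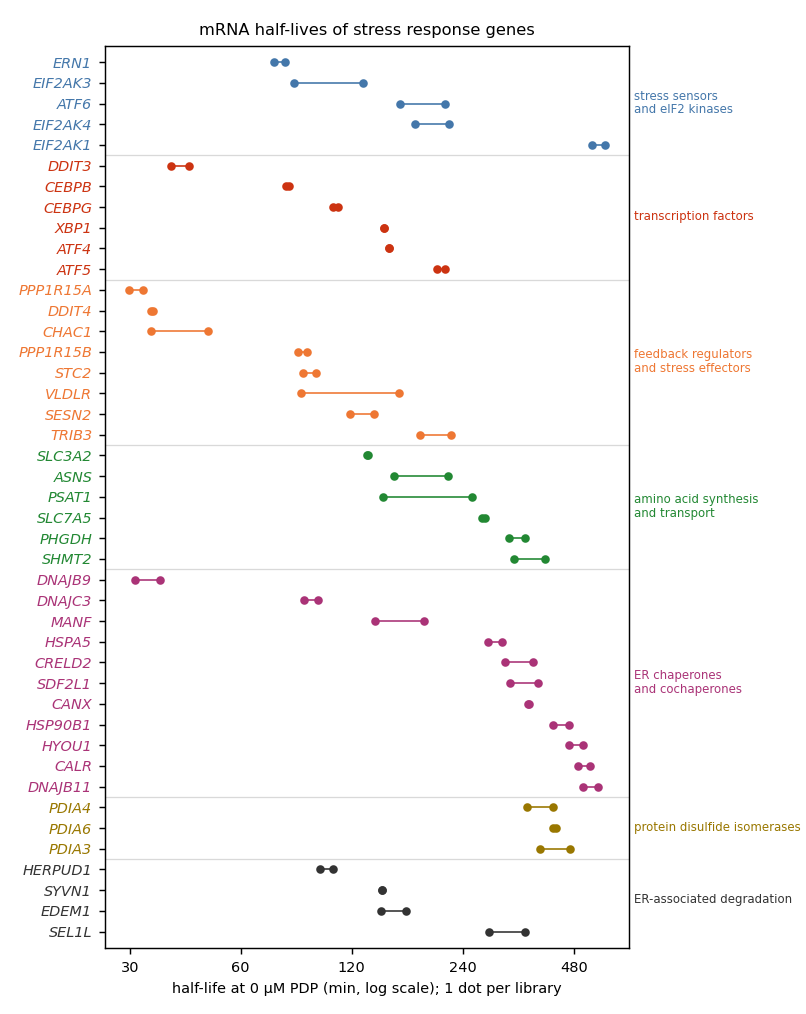
Half-life in minutes (x axis, log scale) of 43 members at 0 µM PDP, with each member on its own line and grouped by role. The 2 dots of a line are the 2 libraries. Feedback regulators such as PPP1R15A (31.2 min) stand at the left and chaperones such as CALR (513 min) at the right.

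Short exposure to PDP lowered the labeled, newly made RNA of many members. At 4 µM 3 members rose and 16 fell of the 43 tested, beside 9.24% of 14124 genes that rose and 19.9% that fell. At 8 µM 1 rose and 20 fell (genes: 10.3% and 27.5%). With TMM scaling 3 rose and 15 fell at 4 µM (genes: 11.5% and 17.1%) and 4 rose and 15 fell at 8 µM (17.1% and 20.1%). There HYOU1, HSPA5, DDIT4, ATF4 and CEBPG no longer passed at 8 µM, and CANX (0.26), PSAT1 (0.52) and PPP1R15A (0.28) passed as rises. The median log2 change of labeled FPM was −0.26 and −0.38 for the members and −0.03 and −0.11 for all genes. Tests are edgeR's quasi-likelihood tests on fragment counts with Benjamini-Hochberg adjustment over all genes tested, passing at 0.05, with library totals as the scale, and both doses are set against the same 0 µM libraries. NUPR1 was not tested because its labeled level was at most 0.189 FPM.

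CEBPB, a C/EBP factor that partners ATF4 (ENSG00000172216.4), had 31.2 and 33.4 labeled FPM at 0 µM, 14 and 14.5 at 4 µM, and 13.5 and 14.2 at 8 µM. The treated libraries did not overlap the controls, and the doses gave almost the same level. The log2 changes were −1.18 ± 0.10 (SE, adjusted p = 1.7e-24) and −1.23 ± 0.10 (4.1e-26). XBP1, the factor activated by IRE1 splicing, followed with 35.6 and 34.9 FPM at 0 µM, 16.1 and 18.0 at 4 µM, and 14.6 and 17.3 at 8 µM, a fall by 1.05 ± 0.10 and 1.15 ± 0.10 on the log2 scale. CEBPG fell at both doses (log2 −0.64 and −0.42, the latter not passed with TMM scaling at −0.27), and ATF5 fell at 8 µM only by the test (−0.64 ± 0.19, adjusted p = 0.0036, and −0.28 ± 0.18 at 4 µM).

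ATF4 moved little. Its labeled level was 63.0 and 62.3 FPM at 0 µM, 63.7 and 62.8 at 4 µM, and 57.0 and 51.6 at 8 µM. The change at 4 µM was 0.01 ± 0.07 (95% interval −0.13 to 0.16), and both 8 µM libraries lay below all others (−0.20 ± 0.07, adjusted p = 0.02). That last call was not kept without either 0 µM library or replicate 2 of 8 µM (−0.20, −0.21 and −0.14), with TMM scaling (−0.05) or after adjustment for GC content (−0.09). DDIT3 held 2.46 and 2.37 FPM at 0 µM, 1.80 and 1.79 at 4 µM, and 2.24 and 2.18 at 8 µM, and its log2 changes of −0.42 ± 0.28 and −0.13 ± 0.27 did not pass.

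Among the sensors, ATF6 (ENSG00000118217.5) went the other way. It had 1.64 and 2.27 labeled FPM at 0 µM, 4.10 and 3.72 at 4 µM, and 5.37 and 4.90 at 8 µM. Every treated library lay above both controls, and the rises were 0.99 ± 0.25 (adjusted p = 0.00093) and 1.39 ± 0.25 (3.1e-07) on 16 and 24 labeled fragments at 0 µM. Without replicate 1 of 0 µM the rise at 4 µM was 0.78 and did not pass. ERN1 had 5.94 and 8.23 FPM at 0 µM, 5 and 4.7 at 4 µM, and 4.11 and 6.69 at 8 µM. It fell at 4 µM (−0.55 ± 0.18, adjusted p = 0.012), and at 8 µM, where the libraries overlapped the controls, the change was −0.42 ± 0.18 (0.053). The call at 4 µM was lost without replicate 2 of 0 µM (−0.29) or of 4 µM (−0.51), and the change at 8 µM passed without replicate 1 of 0 µM (−0.63) or replicate 2 of 8 µM (−0.79). The 3 eIF2 kinases did not pass at either dose: EIF2AK1 changed by 0.10 and −0.14, EIF2AK3 by −0.32 and −0.40, and EIF2AK4 by −0.10 and −0.21.

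Feedback regulators fell in 3 cases at 4 µM and in 5 of 8 at 8 µM, and none rose. CHAC1, a glutathione-degrading enzyme induced by ATF4 (ENSG00000128965.7), had 1.94 and 1.51 labeled FPM at 0 µM, 0.451 and 0.448 at 4 µM, and 0.626 and 0.490 at 8 µM. All treated libraries lay below the controls (−1.92 ± 0.42, adjusted p = 5.6e-05, and −1.60 ± 0.40, 0.00049), although the values rest on 9 to 19 labeled fragments a library. SESN2, a stress-induced inhibitor of mTORC1, fell from 34.8 and 39.6 FPM to 22.9 and 23.2, and to 20.3 and 22.3 (−0.69 ± 0.09 and −0.81 ± 0.09). STC2, a secreted glycoprotein, fell by 0.45 and 0.59, whereas TRIB3 (−0.66) and DDIT4 (−0.41) passed at 8 µM only. PPP1R15A held 17.1 and 15.6 FPM at 0 µM, 19 and 18.9 at 4 µM, and 18.8 and 16.7 at 8 µM, and did not pass (0.21 ± 0.11 and 0.13 ± 0.11). After adjustment for GC content, which in the PDP fits also removes the shift of each whole library, it passed as a rise (0.46 and 0.52).

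ER chaperones were divided at 4 µM, with 2 higher and 4 lower, and 5 of 11 were lower at 8 µM. SDF2L1, a cochaperone of BiP, had 16 and 13.3 FPM at 0 µM, 8.70 and 9.27 at 4 µM, and 8.09 and 6.31 at 8 µM, with no overlap between the controls and either dose (−0.70 ± 0.13 and −1.01 ± 0.14). CRELD2, a secreted ER stress factor, fell by 0.62 and 0.90. CANX, the membrane lectin chaperone, rose from 28 and 27.6 FPM to 36.8 and 34.4 at 4 µM (0.35 ± 0.09, adjusted p = 0.00069) and stood at 30.5 and 29.6 at 8 µM (0.11 ± 0.09, 0.36). HSP90B1 (GRP94) rose from 12.9 and 12.2 to 16.7 and 16.1 at 4 µM (0.39 ± 0.12, 0.0084) and was at 13.9 and 12.6 at 8 µM, and the rise did not pass without replicate 2 of 0 µM (0.35). At 0 µM the labeled shares of HSP90B1 (9.40% and 8.53%) were no higher than its background without s4U (9.43%). Its rise therefore cannot be read as one of new RNA. CANX (10.9% and 10.8%, background 7.76%) and SDF2L1 (12.1% and 10.2%, background 8.12%) also lay near background. The part of background in their changes was not tested. HSPA5 had 29.7 and 29.5 FPM at 0 µM, 26.4 and 26.7 at 4 µM, and 23.6 and 26.5 at 8 µM. All treated HSPA5 libraries lay below the controls, with −0.16 ± 0.09 (adjusted p = 0.2) and −0.25 ± 0.09 (0.026), and neither dose passed with TMM scaling (−0.10 and −0.10). The call at 8 µM was also lost without either 0 µM library or replicate 1 of 8 µM (−0.24, −0.25 and −0.16).

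In ER-associated degradation HERPUD1, a membrane component of the ubiquitin ligase complex, fell from 5.73 and 7 FPM to 3.65 and 3.90, and to 3.09 and 4.30 (−0.76 ± 0.19 and −0.81 ± 0.20). The ligase SYVN1 (HRD1) fell from 17.5 and 17.6 FPM to 11.1 and 10.8, and to 9.39 and 8.82 (−0.68 ± 0.12 and −0.94 ± 0.13). EDEM1 and SEL1L did not pass. Of the amino acid genes, the transporter SLC7A5 (−0.55 and −0.74) and the serine synthesis enzyme PHGDH (−0.32 and −0.44) fell at both doses, and ASNS, PSAT1, SHMT2 and SLC3A2 did not pass. Among the disulfide isomerases only PDIA4 fell (−0.39 and −0.40).

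**Figure D2:**
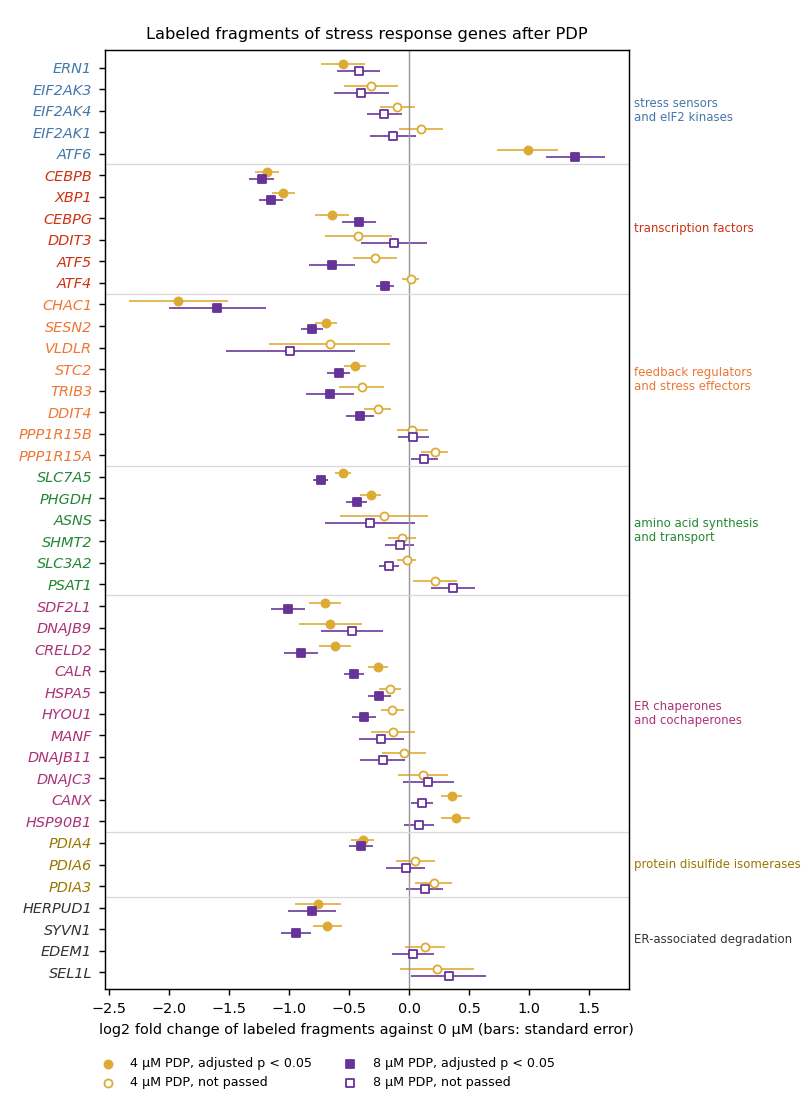
Fitted log2 change of labeled fragments at 4 and 8 µM PDP against 0 µM (x axis) for 43 members ordered by role, with circles for 4 µM, squares for 8 µM, open symbols for members that did not pass and bars of 1 SE. CHAC1, CEBPB and XBP1 lie below −1 at both doses, and ATF6 is the highest member at 0.99 and 1.39.

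Between 8 and 4 µM, which share no libraries, labeled ATF4 was lower by 0.22 ± 0.07 (adjusted p = 0.034) and labeled CANX by 0.24 ± 0.08 (0.043), and no other member passed (all genes 5.62%). ATF4 passed only without replicate 1 of 8 µM, and CANX passed in none of the fits that left out 1 library. No member passed with TMM scaling or DESeq2. By the edgeR fit on library totals 10 members were lower and 1 higher at an unadjusted p of 0.05. Across the 43 members the labeled change fell as GC content rose (Spearman rho −0.52 at 4 µM and −0.61 at 8 µM), as it did over 13785 genes (−0.49 and −0.53). These points share the same libraries. With GC content in the fit, 14 of the 19 calls at 4 µM and 15 of the 21 at 8 µM were kept, CHAC1, CEBPB, XBP1, SYVN1 and ATF6 among them (18.0% and 25.1% of all genes passed in those fits). The calls lost there were CANX, HSP90B1, CRELD2, SDF2L1 and PHGDH at 4 µM, and HYOU1, PHGDH, DDIT4, TRIB3, ATF4 and ATF5 at 8 µM. Those fits also remove the shift of each whole library, so rescaling and GC content cannot be told apart in them.

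Total RNA of the members showed another pattern. On the scale of library totals the median gene was higher with PDP by 0.32 and 0.33, and the members by 0.23 and 0.25, so the changes are read against that shift. At 4 µM 26 members rose and 2 fell (all genes 51.4% and 6.99%), and at 8 µM 25 rose and 6 fell (51.8% and 8.71%). With TMM scaling, which removes the shift, 11 rose and 15 fell at 4 µM (25.2% and 26.2%), and 12 rose and 14 fell at 8 µM (26.8% and 27.0%). The total change also fell as GC content rose (Spearman rho −0.51 and −0.58 across 44 members, and −0.55 and −0.58 over 15042 genes). With GC content in the fit 6 members rose and 14 fell at 4 µM (14.1% and 22.8%), with 8 calls shared with the fit on library totals, and 6 rose and 16 fell at 8 µM (14.4% and 24.9%), with 12 shared. That fit also removes the shift of the median gene, as TMM does, so rescaling and GC content cannot be told apart in it.

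ATF6 was again the highest, with 9.31 and 10.0 total FPM at 0 µM, 26.7 and 22.7 at 4 µM, and 25.3 and 25.9 at 8 µM. The treated libraries stood apart from the controls (1.35 ± 0.12 and 1.40 ± 0.13, and 1.04 and 1.10 with TMM). ASNS, asparagine synthetase and a classical ATF4 target, had 6.14 and 7.10 FPM at 0 µM, 13.5 and 13.6 at 4 µM, and 12.3 and 12.9 at 8 µM (1.03 ± 0.15 and 0.93 ± 0.15, and 0.72 and 0.62 with TMM). PPP1R15A rose from 22.7 and 21.7 FPM to 39.7 and 40.8, and to 42.7 and 38.7 (0.86 ± 0.10 and 0.88 ± 0.10), and the cochaperone DNAJC3, an inhibitor of PERK, rose by 0.82 and 0.98. PSAT1, PPP1R15B and HSP90B1 rose by 0.65 to 0.87, and all of these rises passed with TMM scaling too. With GC content in the fit ATF6 (0.76 and 0.77) and PPP1R15A (0.73 and 0.77) passed at both doses, ASNS (0.46) and HSP90B1 (0.14) at 4 µM only, DNAJC3 (0.33) and PPP1R15B (0.28) at 8 µM only, and PSAT1 at neither.

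CEBPB fell in total RNA from 77.7 and 82.2 FPM to 55.7 and 58.4 at 4 µM and to 59.0 and 65.7 at 8 µM (−0.49 ± 0.07 and −0.36 ± 0.07, and −0.79 and −0.66 with TMM). SDF2L1 fell by 0.33 and 0.41, and CRELD2, DNAJB11, XBP1 and SLC7A5 fell at 8 µM by 0.10 to 0.22. The totals of ATF4 (262 and 260, then 324 and 325, then 331 and 297 FPM) and HSPA5 (216 and 233, then 275 and 268, then 268 and 261 FPM) rose on library totals, by 0.31 and 0.27 and by 0.27 and 0.24, but both were near 0 with TMM scaling (0.01 and −0.04 for ATF4; −0.04 and −0.07 for HSPA5), below the shift of the median gene. EIF2AK1 rose at 4 µM on library totals (0.17) and with TMM scaling its value was −0.14, which did not pass. ERN1 rose by 0.38 and 0.56 and DDIT3 at 8 µM by 0.47, and neither passed with TMM scaling. Between 8 and 4 µM edgeR called 0 members (all genes 0.323%, with 2 members higher and 1 lower at an unadjusted p of 0.05), and DESeq2 called 0.

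**Figure D3:**
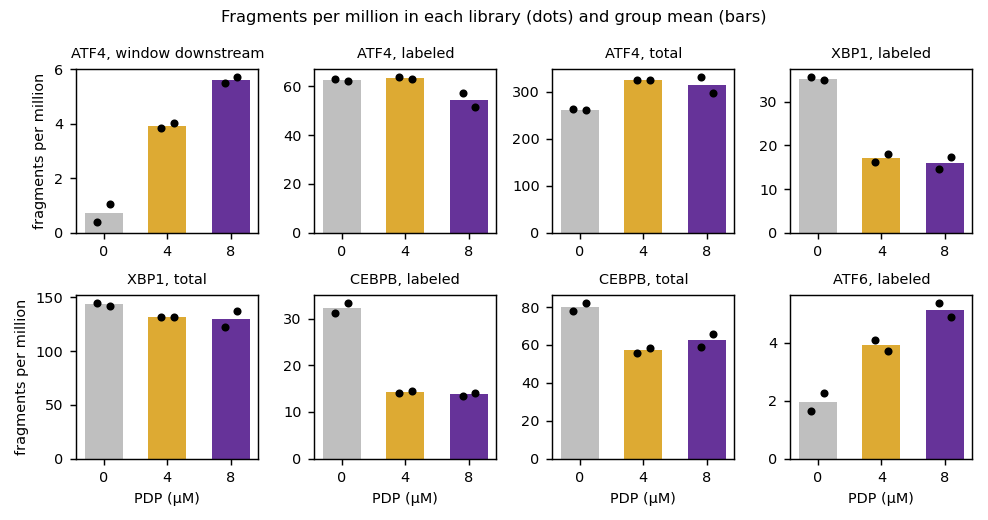
FPM (y axes, from 0) against PDP dose in µM (x axes) for ATF4, XBP1, CEBPB and ATF6, with a dot for each of the 6 libraries and a bar for the mean of a dose. Labeled CEBPB and XBP1 drop at 4 µM and stay low at 8 µM while their totals move less, labeled ATF6 climbs, and the first panel shows fragments in the 4 kb after ATF4, which climb from 0.409 and 1.04 FPM to 5.50 and 5.71 FPM.

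The labeled share of a member's fragments dropped with PDP. The median over 43 members was 20.3% at 0 µM, 15.0% at 4 µM and 13.7% at 8 µM, beside 21.8%, 16.8% and 16% over all genes tested. The share lay below both control libraries in both 4 µM libraries for 39 members (90.7%; all genes 70.5%) and in both 8 µM libraries for 40 (93.0%; all genes 73.8%). In a test of labeled against unlabeled fragments, 34 members fell at 4 µM (all genes 45.9%) and 37 at 8 µM (54.0%), and none rose by edgeR (all genes 0.262% and 0.637%, with 0 members also at an unadjusted p of 0.05 and with DESeq2). With TMM scaling of each fraction, which sets the shared loss of label aside, 12 fell at each dose (7.67% and 12.1%) and DESeq2 called 7 and 8.

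DDIT4 (ENSG00000168209.4) had labeled shares of 70.2% and 69.7% at 0 µM, 37.5% and 38.9% at 4 µM, and 29.5% and 34.6% at 8 µM. No library overlapped between the doses and the control (log2 change of labeled against unlabeled −1.91 ± 0.16 and −2.31 ± 0.16, and −1.48 and −1.79 with TMM). PPP1R15A went from 75.2% and 72.1% to 47.8% and 46.2%, and to 44.1% and 43.2% (−1.65 ± 0.17 and −1.84 ± 0.17). CHAC1 went from 70.4% and 57.1% to 28.6% and 21.3%, and to 29.8% and 18.8% (−2.42 ± 0.57 and −2.44 ± 0.56). These are members with short half-lives, whose RNA is mostly new after 1 h.

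HERPUD1 dropped from 32.2% and 34.4% to 14.8% and 16.4%, and to 12.3% and 14.4% (−1.44 ± 0.21 and −1.70 ± 0.22). STC2, ERN1, XBP1 and CEBPB fell by 1.03 to 1.48 and passed with TMM scaling at both doses. ASNS (−1.44 and −1.45) and DNAJB9 (−1.39 and −1.60) passed on library totals but not with TMM scaling. ATF4 went from 24.0% and 23.9% to 19.6% and 19.3%, and to 17.2% and 17.4% (−0.38 ± 0.07 and −0.59 ± 0.07), and with TMM scaling its change was 0.04 and −0.07. ATF6 did not pass (−0.44 ± 0.30, and −0.02 ± 0.34 with a 95% interval of −0.68 to 0.65).

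Past the gene ends the window of ATF4 rose. Fragments were deposited for the 4 kb after each gene, and 3 members were high enough to be tested of 2173 genes. The window after ATF4 (hg19 chr22:39918692-39922691, with no annotated gene on either strand) held 4 and 11 fragments at 0 µM, 85 and 90 at 4 µM, and 123 and 105 at 8 µM. These are 0.409 and 1.04 FPM, 3.83 and 4.03 FPM, and 5.50 and 5.71 FPM. Every treated library lay above the controls, with rises of 2.40 ± 0.32 (adjusted p = 5.1e-11; genes higher 6.86%) and 2.91 ± 0.30 (3.3e-17; 11.5%) on the log2 scale, while labeled ATF4 itself changed by 0.01 and −0.20. The 8 µM libraries also exceeded the 4 µM libraries (0.51 ± 0.16, adjusted p = 0.044; genes called 4.88%), a call kept with TMM scaling (0.56) but not with DESeq2, limma or any 1 of the 6 libraries left out. The rises rest on few control fragments: without replicate 1 of 0 µM they were 1.91 and 2.42, and without replicate 2 they were 3.24 and 3.75. The window of SYVN1 lies in FAU on the same strand, so its values may come from that gene. They were −0.28 and −0.45, of which the latter passed, beside 24.3% of genes lower, and was lost with TMM scaling.

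In the 4 kb before the gene start 5 members could be tested of 3715. The window before CANX held 8 and 11 fragments at 0 µM, 58 and 43 at 4 µM, and 44 and 29 at 8 µM, that is 0.819 and 1.04, 2.61 and 1.93, and 1.97 and 1.58 FPM. It rose by 1.27 ± 0.35 (adjusted p = 0.0021; genes higher 3.66%) and 0.93 ± 0.37 (0.035; 6.97%), and CBY3 lies there on the other strand. The call at 4 µM was lost without replicate 1 of 0 µM (1.12) or of 4 µM (1.04), and that at 8 µM without either 0 µM library (0.78 and 1.12) or replicate 1 of 8 µM (0.75). DNAJB11, SLC3A2, MANF and ATF5 did not pass.

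Exposure to s4U for 24 h was read in steady-state RNA. Against untreated cells 13 members rose and 13 fell (35.8% and 34.7% of 18914 genes), and with acrylonitrile on both sides 20 rose and 14 fell (33.2% and 31.1%). The median change was 0.09 and 0.27 for the members and 0.02 and 0.05 for all genes. These 2 comparisons share no libraries: all 13 rises and all 13 falls seen without acrylonitrile were called the same way with it, which is 65.0% of the rises and 92.9% of the falls there. Over all genes the shares were 75.9% and 79.2% of the first comparison and 81.9% and 88.4% of the second. Levels are given as CPM, counts scaled by the TMM-adjusted sum of fragments in genes, and not by library totals as FPM is.

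Among the strongest rises were 3 transcription factors of the eIF2 branch. ATF5 (ENSG00000169136.4) went from 5.98 and 5.61 CPM to 22.7 and 22.9 with s4U, and in acrylonitrile-treated RNA from 8.39 and 7.61 to 44.1 and 50.0. No library overlapped, and the log2 rises were 1.98 ± 0.15 (adjusted p = 2.2e-06) and 2.55 ± 0.16 (1.4e-06). ATF4 (ENSG00000128272.10) went from 436 and 448 CPM to 986 and 953 and, with acrylonitrile, from 463 and 462 to 1046 and 1082 (1.13 ± 0.13, 2.6e-05, and 1.20 ± 0.13, 2.5e-05). NUPR1, a small stress-induced cofactor, went from 1.58 and 1.67 to 9.88 and 4.55, and from 4.74 and 6.14 to 14.6 and 22 (2.13 ± 0.40 and 1.76 ± 0.39). CEBPG rose by 0.87 and 1.06, so that 4 of the 7 factors rose.

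XBP1 and CEBPB fell. XBP1 went from 83.6 and 87.6 CPM to 65.2 and 69.1, and with acrylonitrile from 172 and 200 to 124 and 151 (−0.35 ± 0.13, adjusted p = 0.037, and −0.43 ± 0.13, 0.016). CEBPB fell by 0.90 and 0.60, but after adjustment for GC content its changes were −0.02 and 0.07 and did not pass. DDIT3 was at 8.45 and 9.55 CPM without s4U and 14.7 and 7.85 with it, so the groups overlapped, and it did not pass in either comparison (0.31 ± 0.26, 95% interval −0.20 to 0.83; −0.13 ± 0.30).

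Of the sensors 3 fell and 1 rose in both comparisons. ERN1 went from 35.1 and 32.4 CPM to 13.6 and 13.7 and, with acrylonitrile, from 35.4 and 34.4 to 15.3 and 18.3 (−1.31 ± 0.14 and −1.06 ± 0.15). EIF2AK1 fell by 0.76 ± 0.11 and 0.70 ± 0.11, and EIF2AK4 by 0.84 ± 0.13 and 0.58 ± 0.14. EIF2AK3 did not pass without acrylonitrile (0.04 ± 0.16, adjusted p = 0.84) and was lower with it (−0.45 ± 0.17, 0.041). ATF6 rose from 50.0 and 49.4 to 76.2 and 84.6, and from 16.8 and 13.8 to 28.5 and 24.2 (0.69 ± 0.13 and 0.78 ± 0.16).

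The feedback genes were divided, with 3 higher and 4 lower in both comparisons. Both eIF2 phosphatase subunits rose: PPP1R15A went from 20.5 and 18.9 CPM to 92.2 and 68.3, and from 32.3 and 33.9 to 111 and 123 (2.02 ± 0.16 and 1.82 ± 0.16), and PPP1R15B rose by 1.09 and 1.15. STC2 rose by 1.13 and 0.84. CHAC1 went from 23.3 and 24.3 to 3.37 and 5.49, and from 42.0 and 44.7 to 7.98 and 10.7, the largest fall among members in each comparison (−2.40 ± 0.22 and −2.22 ± 0.23). TRIB3 (−1.23 and −0.88), a pseudokinase that restrains ATF4, DDIT4 (−1.20 and −1.56) and the lipoprotein receptor VLDLR (−1.12 and −1.31) also fell, and SESN2 did not pass (0.31 and 0.33).

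**Figure D4:**
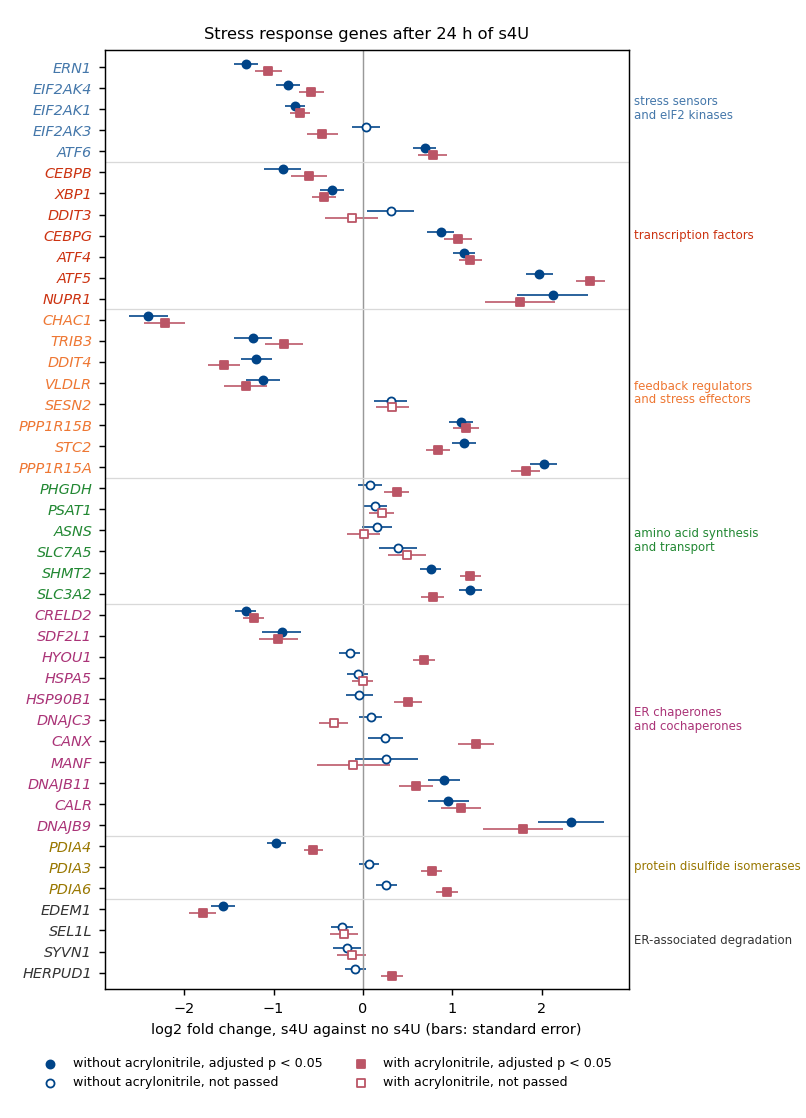
Log2 change with 24 h of s4U (x axis) for the 44 members, one per line and grouped by role, without acrylonitrile (circles) and with it (squares), with bars of 1 SE and open symbols for members that did not pass. ATF5, PPP1R15A, NUPR1 and DNAJB9 lie farthest right and CHAC1 and EDEM1 farthest left, and no member was called in opposite directions.

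SLC3A2, the heavy chain of amino acid exchangers, rose by 1.20 ± 0.13 (213 and 215 CPM to 524 and 460) and 0.78 ± 0.13, and the mitochondrial serine enzyme SHMT2 by 0.76 and 1.20. PHGDH passed with acrylonitrile only by the test (0.38), and ASNS, PSAT1 and SLC7A5 did not pass. ASNS stayed at 133 and 132 CPM without s4U and 127 and 169 with it.

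HSPA5 did not pass in either comparison. It was at 269 and 255 CPM without s4U and 252 and 251 with it (−0.06 ± 0.11, 95% interval −0.28 to 0.17), and at 208 and 193 and then 193 and 208 with acrylonitrile (−0.00 ± 0.12, interval −0.23 to 0.23). DNAJB9 (ENSG00000128590.4), a target of XBP1, rose from 5.64 and 5.53 to 39.8 and 16.7 CPM, and from 4.93 and 5.40 to 14.4 and 21.5 (2.33 ± 0.37, adjusted p = 0.00027, and 1.79 ± 0.45, 0.0058). CALR (0.96 and 1.10) and DNAJB11 (0.91 and 0.59) rose in both comparisons, and CRELD2 (−1.31 and −1.22) and SDF2L1 (−0.91 and −0.95) fell in both, although the SDF2L1 change did not pass after adjustment for GC content (−0.09 and −0.32).

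CANX (1.26), HYOU1 (0.68), HSP90B1 (0.50), PDIA3 (0.77) and PDIA6 (0.94) passed as rises with acrylonitrile only. A direct test of the difference between the s4U effects passed for HYOU1 (ENSG00000149428.14; 0.83 ± 0.17, adjusted p = 0.043; genes higher 1.28%) and for no other member. HYOU1 was at 240 and 236 CPM untreated, 204 and 225 with s4U, 244 and 225 with acrylonitrile, and 375 and 379 with both. The count for that difference was 7 and 17 without replicate 1 and without replicate 2 of the s4U libraries, and 0 without any other library. PDIA4 fell by 0.97 and 0.55. EDEM1, which directs misfolded glycoproteins to degradation, fell from 67.1 and 66.9 CPM to 24.1 and 21.1, and from 61.1 and 62.4 to 15.7 and 20.1 (−1.57 ± 0.14 and −1.79 ± 0.15), and HERPUD1 passed with acrylonitrile only (0.33).

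Acrylonitrile was applied to isolated RNA, and its libraries also held a lower share of fragments in genes and, at 41.6 and 105 FPM against 12.6 and 12, more liver marker RNA without s4U. The part of these in the differences was not tested. In RNA without s4U 14 members were higher and 12 lower (all genes 29.1% and 30.7%), and in s4U-labeled RNA 17 were higher and 10 lower (31.0% and 34.1%). CEBPB went from 38.1 and 41.1 to 188 and 222 CPM, and with s4U from 19.1 and 23.2 to 105 and 165 (2.37 ± 0.21 and 2.67 ± 0.21). SDF2L1 went from 62.4 and 65.4 to 166 and 176 (1.42 and, with s4U, 1.38), and NUPR1, TRIB3, XBP1, SLC7A5 and CRELD2 were higher by 1.01 to 1.72 in both comparisons.

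ATF6 was lower, at 16.8 and 13.8 CPM with acrylonitrile against 50.0 and 49.4 without (−1.69 ± 0.15, and with s4U −1.61 ± 0.14). ASNS (−1.53 and −1.68), PSAT1 (−1.42 and −1.35), SEL1L (−1.35 and −1.33), DNAJC3 (−1.21 and −1.62) and HSP90B1 (−1.26 and −0.72) were lower in both, and CANX in RNA without s4U (613 and 612 to 236 and 207, −1.47 ± 0.20). ATF4 (0.07 and 0.13), DDIT3 (0.45 and 0.02), ERN1 (0.05 and 0.30), EIF2AK1 (−0.19 and −0.13) and EIF2AK3 (0.12 and −0.37) did not pass. HSPA5 was lower by 0.39 and 0.33.

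**Figure D5:**
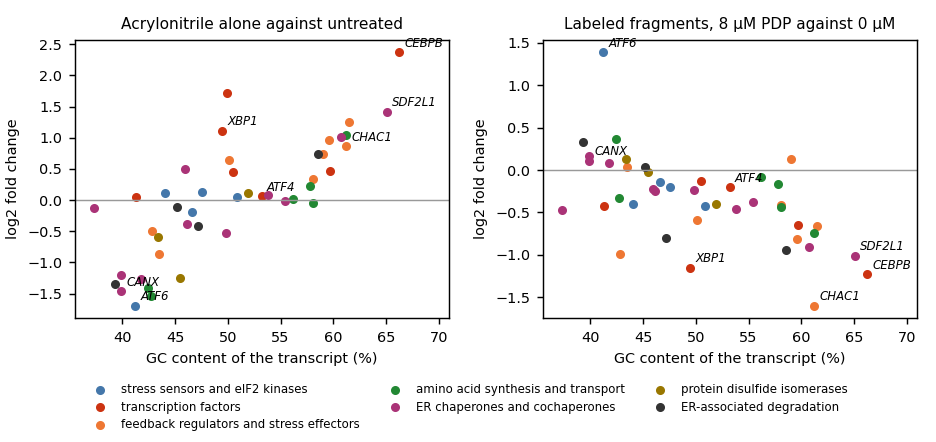
Log2 change against transcript GC content in percent (x axis) for the members, in the acrylonitrile comparison without s4U and in labeled RNA at 8 µM PDP, each dot being a member colored by role. The changes rise with GC under acrylonitrile (rho 0.80) and fall with it under PDP (rho −0.61).

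These changes followed GC content: the Spearman correlation across the 44 members was 0.80 without s4U and 0.83 with it, and 0.71 and 0.70 over 18237 genes. GC content ranged from 37.3% to 66.2% among the members. With GC content in the fit 19 members passed in each comparison, of which 11 had been called before (all genes 34.0% and 42.5%). CEBPB remained higher (0.81 and 0.90), as did XBP1 (1.29 and 1.16) and NUPR1 (1.85 and 1.43), and ATF6, ASNS and PSAT1 remained lower. The rises of CRELD2 (0.03 and −0.01), SLC7A5 (0.02 and −0.01) and TRIB3 (0.18 and 0.41) and the falls of SEL1L (−0.40 and −0.33) no longer passed, nor did DNAJC3 without s4U (−0.30) or HSP90B1 with it (0.09). HSPA5 (0.09 and 0.12) and SDF2L1 (−0.02 and −0.26) changed sign in both comparisons and did not pass.

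After 24 h with s4U and acrylonitrile, most fragments of nearly every member were marked with a mismatch. The marked share ranged from 45.0% (CANX, SD 0.88, n = 2) to 97.8% (PPP1R15B, SD 1.2, n = 2) with a median of 89.4%, beside 91.3% over 11858 genes. Without s4U the member median was 7.31% in untreated and 7.11% in acrylonitrile-treated RNA, and with s4U alone 10.8%. ATF4 (95.1%) and HSPA5 (95.6%) stood above the median, while CANX, PDIA6 (54.7%), HYOU1 (55.1%) and PDIA3 (56.0%) were the lowest. Those 4 also had the largest differences between the s4U effects with and without acrylonitrile (CANX 1.01, HYOU1 0.83, PDIA3 0.70 and PDIA6 0.68). Across the members the marked share and that difference had a Spearman rho of −0.41 (n = 44), and over 11858 genes −0.28, with the s4U plus acrylonitrile libraries shared by both measures. MANF, a secreted ER stress factor, was marked in 20.0% and 20.8% of fragments in untreated cells already, the highest background among members.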

How the data were processed

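RNA of 14 HEK293T libraries was analysed, 8 from the s4U and acrylonitrile experiment and 6 from the PDP experiment, grouped by their labels. The submitters' processing notes name cutadapt 1.18 and HISAT2 2.1.0, and the gene tables use hg19 and GENCODE coordinates; the counting tool and its strand setting are not given in the sources used here. Per the study's methods the libraries were directional, identical reads were collapsed, and unique pairs were mapped with a strand setting. The authors deposited fragment counts per gene, split by whether a fragment held a mismatch, for the first experiment. For the PDP experiment the authors deposited values in FPM, an RPM unit (fragments per 1000000 of the library), beside counts of total, mismatched, upstream and downstream fragments, and half-lives in minutes as a score per gene. The mismatch type is not named in the tables. FPM was meant to be tested with limma, but counts were present and were used instead, with limma kept as an alternative.

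The 44 members, their roles and the other gene lists were chosen with earlier results of these data known. Counts were fitted with edgeR 4.0.16 (R 4.3.3) by the quasi-likelihood test, with a common fit over all groups of an experiment. Scaling was TMM in the first experiment and library totals in the PDP experiment, where genes needed a mean total of 1 FPM and a mean labeled or window level of 0.5 FPM. Benjamini-Hochberg adjustment covered all genes tested, at 0.05. Labeled against unlabeled change was an interaction term. Half-lives were recomputed from labeled shares at 60 min and matched the deposited values. The text names at most 6 rises and 6 falls of passing members per comparison, besides the sensors, ATF4, XBP1, DDIT3 and HSPA5, and the 4 shortest and 4 longest half-lives; further passing members are given with their change only. Intervals are 95%. Those of shares (Wilson) cover counting error only. Those of log2 changes come from the SE of the fit, which includes the estimated spread between libraries. They use the multiplier of a normal distribution, so they are narrower than the F test behind the p-values implies.

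Alternatives were TMM or library-total scaling, DESeq2 1.42.0, limma 3.58.1 on log2(FPM + 0.1, 0.01 or 1), no filter on low values, a GC offset (spline of 6 degrees of freedom, GENCODE transcripts), a replicate block, a 1.5-fold rule in both replicates, single groups only, and each library left out. The GC offset was fitted with an intercept for each library. In the PDP fits it therefore also removed library-wide shifts, and its results mix rescaling with GC content. Summing the 2 untreated or the 2 libraries at 0 µM PDP as 1 sample, and testing the window upstream of each gene, were chosen after seeing the data. Replicate numbers are shared between groups, but deviations of same-numbered libraries correlated by only −0.037 to 0.190, so the numbers were not taken as pairs. Scripts used Python 3.11.15, pandas 2.3.3, NumPy 2.4.6, SciPy 1.17.1 and Matplotlib 3.10.9. Some of the fits were tested on simulated data first. The window after 1 further tested member is not reported here.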

Additional observations from a re-analysis of the deposited data

Results flagged for a closer look

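The s4U effect on HYOU1 differed between RNA with and without acrylonitrile by 0.83 on the log2 scale, which is a tested difference between effects. The s4U dose in the acrylonitrile group is uncertain, so dose and chemistry cannot be told apart.

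Between 8 and 4 µM PDP the test found 3 differences between doses: fragments in the 4 kb after ATF4 (0.51), labeled CANX (−0.24) and labeled ATF4 (−0.22). None of the 3 passed with DESeq2 or with the GC offset.

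Fragments in the 4 kb before CANX rose by 1.27 at 4 µM and 0.93 at 8 µM against 0 µM, a signal outside the measured gene bodies. The 0 µM libraries held 8 and 11 fragments there, and the part of CBY3 on the other strand was not tested.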

How the results depend on the processing

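With 2 libraries a group, low members are limited by depth: CHAC1 rests on 19 and 16 labeled fragments at 0 µM, and long half-lives rest on labeled shares near the background. Across all alternatives the members' counts of calls stayed within 1.5 times the reported count in 249 cases and moved further in 74. For labeled against unlabeled, the GC offset of a library was the same for both fractions and cancels in the comparison. Those cases, counted among the 249, are thus no check of that result. For single members 3080 log2 changes kept their side of the threshold, 258 no longer passed and 27 passed newly. A further 48 changed sign where the main or the alternative fit passed. Changes of sign where neither fit passed are among the 3080. Except where an alternative tests fewer samples, the cause was not tested. The replicate block (the number as a term, though the numbers do not pair the libraries) gave 2 for the difference of s4U effects and 1 for labeled 8 against 4 µM, and changed no other count by over 1.5 times. For the difference of s4U effects the count was 1, 2 with DESeq2 and with the GC offset, 5 with no filter, and 0 with the untreated pair summed. For labeled RNA the counts of 19 and 21 became 7 and 11 by the 1.5-fold rule, and 21 became 11 with DESeq2. The 2 calls at 8 against 4 µM became 0 with the 0 µM pair summed, DESeq2, the GC offset with or without the block, TMM, the fold rule, limma and the 2 groups alone. Labeled against unlabeled, 34 and 37 became 7 and 8 with DESeq2 and 12 and 12 with TMM. Total counts of 28 and 31 became 8 and 8 by the fold rule. Downstream, the 2 calls at 8 µM became 1 with DESeq2, the GC offset with or without the block, TMM and the fold rule, and the 1 call at 8 against 4 µM became 0 with the 0 µM pair summed, DESeq2, the GC offset with or without the block, the fold rule, limma, no filter and the 2 groups alone. The upstream calls at 8 µM (1) became 0 with DESeq2 and 2 with the GC offset. The half-life median of 188 min became 296 after background subtraction and 219 at 70 min, the marked share of 89.4% became 77.2% with at least 2 mismatches, and 1 of the 3 promoters with the second ER stress element held it on the gene strand.

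Signs that changed where the main or the alternative fit passed were these. With the GC offset, and with the GC offset and block in brackets, the acrylonitrile change without s4U was 0.094 (0.094) for HSPA5 and −0.023 (−0.027) for SDF2L1, and with s4U −0.013 (−0.013) for CRELD2, 0.12 (0.12) for HSPA5, −0.26 (−0.23) for SDF2L1 and −0.012 for SLC7A5. Labeled against unlabeled ATF4 at 4 µM was 0.044 with TMM and 0.087 with DESeq2, and at 8 µM EIF2AK4 was 0.12 and 0.15 and HSPA5 0.022 with DESeq2. In total RNA at 4 µM, ATF4 was −0.0018 with DESeq2 and −0.0058 (−0.0057) with GC; EIF2AK1 −0.14 with TMM, −0.15 with DESeq2 and −0.33 (−0.33) with GC; EIF2AK4 −0.21 with TMM and −0.38 (−0.38) with GC; ERN1 −0.0036 with GC; HSPA5 −0.035 with TMM, −0.043 with DESeq2 and −0.24 (−0.24) with GC. At 8 µM, ATF4 was −0.037 with TMM, −0.057 with DESeq2 and −0.054 (−0.054) with GC; EIF2AK1 −0.23, −0.25 and −0.45 (−0.44); EIF2AK3 −0.0013 with DESeq2 and −0.26 (−0.26) with GC; EIF2AK4 −0.36 (−0.35) with GC; HSPA5 −0.068, −0.088 and −0.30 (−0.30).

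Leaving out 1 library at a time reversed no named member whose change had passed. The counts ranged from 25 to 34 for s4U, 27 to 37 for s4U with acrylonitrile, 21 to 31 for acrylonitrile, 22 to 32 for acrylonitrile with s4U, and 0 to 17 for the difference of s4U effects. For PDP they were 14 to 19, 15 to 21 and 0 to 1 in labeled RNA, 22 to 31, 25 to 31 and 0 to 0 in total RNA, 26 to 34 and 31 to 37 for labeled against unlabeled, 1 to 1, 1 to 2 and 0 to 0 downstream, and 0 to 1, 0 to 1 and 0 to 0 upstream, in the order 4 against 0, 8 against 0 and 8 against 4 µM. The half-life median was 161 to 168 min and the marked share 89.7% to 90.2% in single libraries.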

Other observations

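Neighboring gene lists were counted in the same fits, where 35.8% of all genes rose and 34.7% fell with s4U without acrylonitrile, and 33.2% and 31.1% with it. In labeled RNA the shares were 9.24% and 19.9% at 4 µM PDP and 10.3% and 27.5% at 8 µM, and in total RNA 51.4% and 6.99%, and 51.8% and 8.71% (with TMM scaling 25.2% and 26.2%, and 26.8% and 27.0%). A list of 10 genes held eIF2 and its exchange factor together with EIF2A and the kinase EIF2AK2. Of these 10, 5 rose and 0 fell with s4U in each comparison (EIF2S1, the alpha subunit, by 1.54 ± 0.22 and 1.24 ± 0.28). In total RNA 8 of them rose and 0 fell at 4 µM PDP, and 6 rose and 0 fell at 8 µM. With TMM scaling 5 rose and 2 fell at each dose. Of 23 further ATF4 targets, 7 rose and 7 fell with s4U without acrylonitrile and 9 and 7 with it; KLHL24 rose by 1.53 and 0.91 and NDRG1 fell by 1.62 and 1.51. In labeled RNA 1 rose and 7 fell at 4 µM PDP, and 2 rose and 9 fell at 8 µM, of 21 tested. ATF3, a stress factor induced by ATF4 and other signals, rose: its labeled level averaged 4.79 FPM at 0 µM, 7.84 at 4 µM and 15.9 at 8 µM (0.72 ± 0.17, adjusted p = 0.0004, and 1.73 ± 0.16, 7.7e-23, by edgeR). The step from 4 to 8 µM was 1.02 ± 0.12 in labeled RNA and 0.60 ± 0.09 in total RNA. BBC3 (PUMA) fell by 0.92 and 0.89 and SLC6A9, a glycine transporter, by 0.90 and 1.01 in labeled RNA.

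Of 30 further ER folding genes, 13 rose and 8 fell with s4U without acrylonitrile and 16 and 10 with it, KDELR3 falling by 1.95 and 1.64. In labeled RNA 1 rose and 9 fell at 4 µM PDP and 0 rose and 10 fell at 8 µM. Of 15 genes of ER stress signal processing, 5 rose and 7 fell with s4U without acrylonitrile and 4 and 6 with it; NFYA, a subunit of the factor that binds CCAAT, rose by 1.34 and 1.25, and TMBIM6, an ER membrane protein, by 1.29 and 1.57. NFYB differed between the s4U effects by −2.55 ± 0.30 (adjusted p = 0.0066) and GANAB, a glucosidase of ER folding, by 1.11 ± 0.18 (0.022).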
